A study of Drosophila melanogaster with 12 samples.

Results

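The genes described here are 10 genes of juvenile hormone synthesis, response and breakdown in *Drosophila melanogaster*. They were taken by their symbols from a table of 14001 genes, and all 10 were found. They are jhamt for synthesis, the receptors Met and gce with their coactivator tai, the response gene Kr-h1, the esterases Jhe and Jhedup, and the epoxide hydrolases Jheh1, Jheh2 and Jheh3. RNA sequencing of whole bodies covered a strain that the labels call resistant to avermectins and a sensitive strain that they call wild type. Avermectins are insecticides whose target is a chloride channel opened by glutamate. Each strain was sampled as adults and as third-instar larvae, the last larval stage, with 3 libraries in each of the 4 groups. The labels give no sex, exact age, rearing condition or exposure to the insecticide, and do not say whether replicates came from separate cultures. The p-values therefore rest on the variation among the libraries at hand, which may be no more than technical.

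Juvenile hormones are sesquiterpenoids made by the corpora allata, small endocrine glands that in fly larvae form part of the ring gland. The methyltransferase encoded by jhamt acts late in synthesis, and the hormone is bound by the paralogous bHLH-PAS transcription factors Met and Gce, which with the coactivator Tai switch on Kr-h1, a zinc-finger repressor that holds back metamorphic genes in larvae. Esterases and epoxide hydrolases break the hormone down. In adult flies it is known for promoting yolk uptake and egg production and for acting on male accessory glands.

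Values are FPKM, fragments counted per unit of transcript length and of library total, and a mean is followed by its SD over 3 libraries throughout. The steps between low values correspond to an estimated 11240000 to 12460000 fragments per library. The 13 larval markers fixed for the check of stage, glue, larval serum and cuticle genes, summed to 87.9 to 314 FPKM in adults and to 93019 to 158212 FPKM in larvae, with Sgs4 at or near 0 in every library. The 13 adult markers summed to 11054 to 19949 FPKM in adults and to 9.86 to 158 FPKM in larvae. One adult library of the sensitive strain, replicate 1, stood apart among the members. Of its group's 3 libraries it was the highest for Met, gce, tai and Kr-h1 and the lowest for the other 6 genes. Of the male markers, SP had 70.6 FPKM in this library, against 338 and 312 FPKM in the other sensitive adults. The male marker Acp26Aa did not set it apart, at 47.5 FPKM against 49.35 and 45.85 FPKM. Scaling also mattered. Median-of-ratios scaling, which divides a library by the median over genes of its ratio to a common profile, gave factors of 0.688 to 0.702 for the sensitive larvae and 0.967 to 1.43 for the other 9 libraries. The median gene was 0.28 higher in adults than larvae of the resistant strain and 0.62 higher in adults of the sensitive strain (log2) in the deposited values, against 0.03 and 0.04 after this scaling, so both values are given wherever a call depends on it.

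Across the members, the hydrolases were the abundant transcripts and the rest were low. Jheh1, Jheh2 and Jheh3 lay between 33.8 and 173 FPKM in every library, an estimated 607 to 3972 fragments per gene. The other 7 genes lay between 0.23 and 16.2 FPKM. At the bottom, jhamt rested on 6 to 106 estimated fragments and Jhedup on 5 to 190, so single larval values of these genes carry a wide counting error. In bulk RNA from whole animals, fewer cells of a type and less RNA per cell cannot be told apart.

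**Figure D1:**
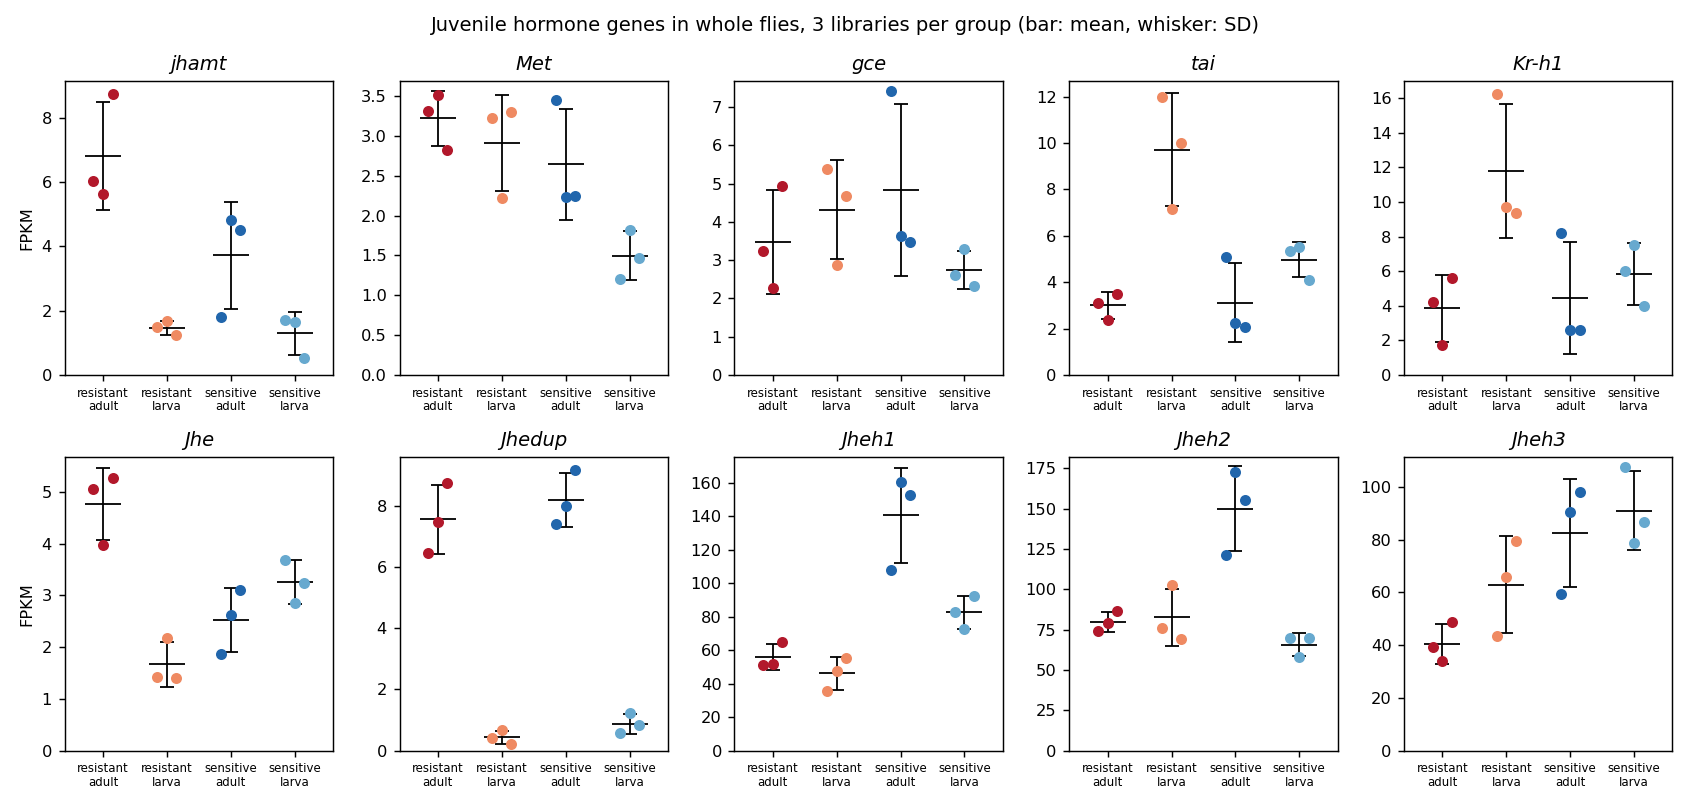
FPKM of the 10 juvenile hormone genes in each of the 12 libraries, 1 panel per gene with its own axis from 0; horizontal bars are means and whiskers SDs of 3 libraries. Jhedup and jhamt are higher in all adults than in all larvae of the same strain, and Jheh1 is higher in every sensitive adult than in every resistant one. Of all genes tested, 58.7% had stages without overlap in the resistant and 73.6% in the sensitive strain. The adult strains did not overlap for 32.1%.

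The first question was how the members differed between adults and larvae within each strain. In the resistant strain the synthetic enzyme jhamt and both esterases were higher in adults, and tai and Kr-h1 were lower in adults. In the sensitive strain jhamt, Met, Jhedup, Jheh1 and Jheh2 were higher in adults. Only jhamt and Jhedup were called in both strains. In the resistant strain 3 of 10 members were called higher and 2 lower, where 34.7% of all 12013 genes tested were called higher, 17.4% lower and 52.1% in either direction. In the sensitive strain 5 of 10 were called higher and 0 lower, beside 55.7% higher, 13.2% lower and 68.9% in either direction of 11644 genes. These shares are near those of all genes, so the counts are not a result about the members. After median-of-ratios scaling the members' counts were 3 higher and 3 lower in the resistant strain, beside 28.3% and 25% of all genes, and 1 higher and 4 lower in the sensitive strain, beside 29% and 26%. In the deposited values the stages did not overlap for 5 of 10 members in the resistant and 6 of 10 in the sensitive strain. The shares of all genes tested were 58.7% and 73.6%, so a lack of overlap between stages was common.

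jhamt, on chromosome 2L at 16365903 to 16367039 of the dm6 assembly, encodes the enzyme that methylates juvenile hormone acid or its precursor. It had 6.03, 5.64 and 8.73 FPKM in resistant adults, against 1.5, 1.67 and 1.24 FPKM in resistant larvae. Every resistant adult was above every resistant larva, the ratio of the means was 4.63, and the log2 difference was 1.64 ± 0.22 (SE; 95% interval 1.15 to 2.14; adjusted p = 0.000101). Sensitive adults had 1.80, 4.83 and 4.52 FPKM of jhamt, against 1.70, 1.65 and 0.52 FPKM in sensitive larvae. The groups did not overlap here either, but adult replicate 1 exceeded the highest larva by a margin far smaller than the spread within either group. The log2 difference was 1.02 ± 0.33 (adjusted p = 0.0232). That call was lost without adult replicate 2 or 3 or larval replicate 3, with adjusted p of 0.0626 to 0.0892, and after median-of-ratios scaling, with a difference of 0.58 and adjusted p = 0.187. Beside these values, 5 genes of the prothoracic gland, the steroid-producing neighbour of the corpora allata in the larval ring gland, summed to 7.51, 6.36 and 5.27 FPKM in resistant adults and to 48.7, 65.7 and 44.0 FPKM in resistant larvae. The same 5 genes (phm, dib, sad, spok and nvd) summed to 5.0, 6.54 and 7.48 FPKM in sensitive adults and to 35.5, 39.1 and 26.02 FPKM in sensitive larvae, so their sum was lower in every adult than in every larva of its strain. By gene, 4 of 4 tested were called lower in resistant adults and 3 of 4 in sensitive adults, where dib was not called (log2 difference 0.08; adjusted p = 0.666). The part of gland tissue in the values of jhamt was not tested.

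Met and gce, which encode the hormone's receptors, are paralogues on chromosome X that lie 3.68 Mb apart. Met had 3.32, 3.51 and 2.83 FPKM in resistant adults and 3.22, 2.22 and 3.30 FPKM in resistant larvae, which overlap, with a log2 difference of 0.12 (95% interval -0.35 to 0.59; adjusted p = 0.670). In the sensitive strain Met had 3.45, 2.24 and 2.25 FPKM in adults, all above the 1.20, 1.82 and 1.47 FPKM of larvae, with a log2 difference of 0.54 ± 0.19 and adjusted p = 0.0329. The call was lost without adult replicate 1 (adjusted p = 0.0637), larval replicate 1 (0.116) or larval replicate 3 (0.0850), and the difference was 0.08 with adjusted p = 0.715 after median-of-ratios scaling. No stage difference of Met that holds across these settings was therefore found in either strain.

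For gce the values were 3.24, 2.26 and 4.94 FPKM in resistant adults and 5.39, 2.88 and 4.69 FPKM in resistant larvae. They were 7.42, 3.62 and 3.47 FPKM in sensitive adults and 2.62, 3.28 and 2.33 FPKM in sensitive larvae. The sensitive adults were all above the sensitive larvae, while in the resistant strain the stages overlapped. Neither difference was called, at -0.26 in the resistant strain (adjusted p = 0.464) and 0.58 in the sensitive strain (adjusted p = 0.0762). Without sensitive adult replicate 3 the adjusted p of gce in the sensitive strain was 0.0453, and with a common total per library it was 0.0496. Within libraries gce was the more abundant receptor transcript in 10 of 12, with a gce to Met ratio of 0.64 to 2.18, and the exceptions were resistant adults replicates 1 and 2 at 0.98 and 0.64. Exons of gce overlap 2 annotated antisense RNAs, and the sources used here do not give whether the counting used strand.

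tai encodes a steroid receptor coactivator of the p160 type that partners the ecdysone receptor as well as the juvenile hormone receptors. It had 3.11, 2.37 and 3.51 FPKM in resistant adults, against 11.98, 7.17 and 10.02 FPKM in resistant larvae. All resistant adults lay below all resistant larvae, with a log2 difference of -1.41 ± 0.25 (95% interval -1.95 to -0.86; adjusted p = 0.000630), and the call held without each of the 6 libraries. Sensitive adults had 5.07, 2.23 and 2.06 FPKM of tai, and sensitive larvae 5.33, 5.50 and 4.10 FPKM. Here adult replicate 1 lay within the larval range and the others below it. The log2 difference of -0.60 was not called (adjusted p = 0.0795), but it was -0.92 without that library (adjusted p = 0.000971) and -1.14 after median-of-ratios scaling (adjusted p = 0.00417). The 3′ end of tai overlaps aust on the opposite strand, which had 0.98 to 3.81 FPKM.

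Kr-h1 is the main early response gene of the hormone. It had 4.19, 1.74 and 5.61 FPKM in resistant adults, against 16.2, 9.70 and 9.36 FPKM in resistant larvae. Each resistant adult was below each resistant larva, the larval mean was 3.06 times the adult mean, and the log2 difference was -1.45 ± 0.34 (95% interval -2.20 to -0.70; adjusted p = 0.00415), called without each of the 6 libraries as well. For Kr-h1 the sensitive adults had 8.19, 2.59 and 2.57 FPKM and the sensitive larvae 5.99, 7.51 and 3.97 FPKM. Adult replicate 1 was above all 3 larvae and the other adults were below them. The difference was -0.44 (adjusted p = 0.320), against -0.90 without that library (adjusted p = 0.00635) and -1.0 after median-of-ratios scaling (adjusted p = 0.0376). The lower adult level of Kr-h1 and tai was thus called in the resistant strain at every setting, and in the sensitive strain only in those 2. Among the members, tai and Kr-h1 had the most similar profiles over the 12 libraries, with a Pearson correlation of log2 values of 0.94, given as a description of libraries that share stage and strain. Exons of Kr-h1 overlap the gene CG45075, which had 0.28 to 0.92 FPKM.

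**Figure D2:**
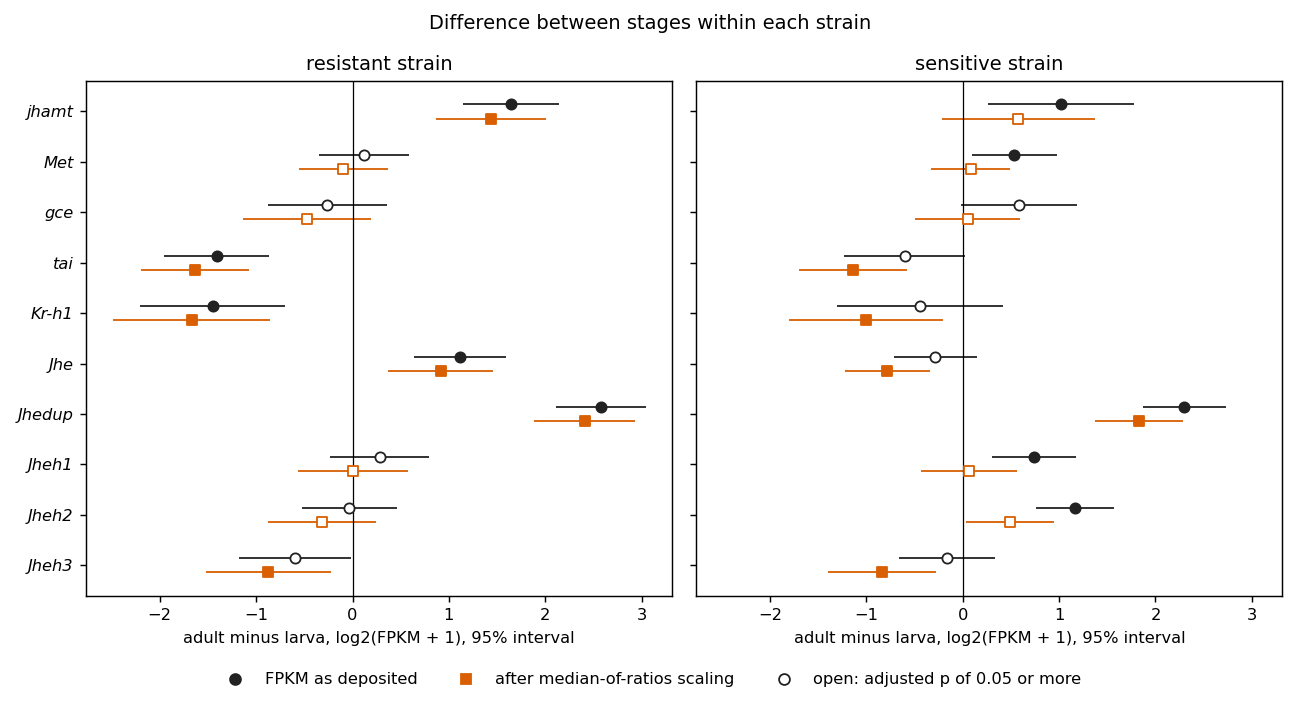
Adult minus larva difference of each gene on the log2(FPKM + 1) scale with its 95% interval, in the resistant strain on the left and the sensitive strain on the right; circles are deposited FPKM, squares are after median-of-ratios scaling, and filled symbols have an adjusted p under 0.05. Only Jhedup is filled in both panels and both scalings, and Jhe lies on opposite sides of 0 in the 2 strains.

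The esterases lie side by side on chromosome 2R, Jhedup at 16117109 to 16119149 and Jhe at 16119793 to 16122773, with 643 bp between them on the same strand. Jhe encodes the juvenile hormone esterase, and Jhedup a second carboxylesterase next to it. The action of either enzyme on the hormone was not measured. Jhedup had 6.47, 7.47 and 8.74 FPKM in resistant adults, against 0.42, 0.66 and 0.23 FPKM in resistant larvae. It had 7.41, 8.01 and 9.16 FPKM in sensitive adults, against 0.58, 1.23 and 0.83 FPKM in sensitive larvae. Jhedup thus separated the stages completely in both strains, by 17.3 times in the resistant and 9.31 times in the sensitive strain as ratios of means. The log2 difference was 2.58 ± 0.21 in the resistant strain (95% interval 2.11 to 3.04; adjusted p = 1.546e-06) and 2.30 ± 0.19 in the sensitive strain (95% interval 1.87 to 2.73; adjusted p = 9.701e-06). These are smaller than the ratios because 1 FPKM was added before the log. Jhedup passed the filter of 1 FPKM in 3 libraries through its adult values, since 1 larva of 6 reached 1 FPKM, so that it was tested at all depended on the adults being high.

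Jhe behaved otherwise, and differently in the 2 strains. It had 5.06, 3.97 and 5.27 FPKM in resistant adults, against 1.42, 2.17 and 1.41 FPKM in resistant larvae. All resistant adults were above all resistant larvae, with a log2 difference of 1.12 ± 0.22 (95% interval 0.64 to 1.59; adjusted p = 0.00117). In the sensitive strain Jhe had 1.87, 2.61 and 3.10 FPKM in adults and 3.69, 2.85 and 3.23 FPKM in larvae. These ranges overlap, and the log2 difference was -0.28 (adjusted p = 0.212), or -0.78 after median-of-ratios scaling (adjusted p = 0.00827). Within each library, the Jhedup to Jhe ratio was 1.28, 1.88 and 1.66 in resistant adults and 0.30, 0.30 and 0.16 in resistant larvae. It was 3.96, 3.07 and 2.96 in sensitive adults and 0.16, 0.43 and 0.26 in sensitive larvae. Jhedup was therefore the more abundant of the pair in every adult library and Jhe in every larval one, a comparison that no scaling of a whole library can alter.

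The epoxide hydrolases Jheh1, Jheh2 and Jheh3 also sit together on chromosome 2R, between 18853434 and 18862078 on the minus strand, and share 1 annotated antisense RNA that overlaps exons of all 3. Epoxide hydrolases open the epoxide ring of the hormone, and enzymes of this class act on foreign compounds as well. Jheh1 had 51.2, 51.7 and 64.6 FPKM in resistant adults and 35.7, 47.7 and 55.2 FPKM in resistant larvae, overlapping ranges with a log2 difference of 0.28 (adjusted p = 0.334). In the sensitive strain Jheh1 had 108, 161 and 153 FPKM in adults, all above the 83.1, 72.7 and 92.2 FPKM of larvae. The log2 difference there was 0.74 ± 0.19 (adjusted p = 0.00756), but 0.07 after median-of-ratios scaling (adjusted p = 0.811).

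Jheh2 had 74.0, 78.9 and 86.6 FPKM in resistant adults and 75.9, 103 and 69.4 FPKM in resistant larvae, with a log2 difference of -0.03 (95% interval -0.53 to 0.46; adjusted p = 0.916). Jheh2 had 121, 173 and 156 FPKM in sensitive adults, against 69.5, 57.7 and 69.9 FPKM in sensitive larvae. The sensitive adults were all above the larvae, 2.28 times as ratio of means, while in the resistant strain the stages overlapped. The sensitive difference was 1.17 ± 0.18 (95% interval 0.76 to 1.57; adjusted p = 0.000416), called without each library, and 0.49 with adjusted p = 0.0644 after median-of-ratios scaling.

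Jheh3 had 39.1, 33.8 and 48.7 FPKM in resistant adults and 43.4, 65.7 and 79.6 FPKM in resistant larvae. It had 59.3, 90.3 and 97.9 FPKM in sensitive adults and 108, 78.6 and 86.8 FPKM in sensitive larvae. The stages overlapped in both strains. The log2 difference was -0.59 in the resistant strain (adjusted p = 0.0813) and -0.16 in the sensitive strain (adjusted p = 0.532). After median-of-ratios scaling it was -0.87 (adjusted p = 0.0266) and -0.84 (adjusted p = 0.0181), so that the call of Jheh3 depended on the scaling in both strains. In the resistant strain it was also called without adult replicate 3 (adjusted p = 0.0126) or larval replicate 1 (0.0307).

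Because the 3 hydrolases were measured in the same libraries, their make-up can be set side by side without regard to scaling. Jheh2 gave 45.0, 48.0 and 43.3% of the summed FPKM of the 3 genes in resistant adults and 49.0, 47.5 and 34.0% in resistant larvae. It gave 42.0, 40.8 and 38.3% in sensitive adults and 26.7, 27.6 and 28.1% in sensitive larvae, which are the lowest values of the 12 libraries. Jheh3 gave 22.9 ± 2.05% in resistant adults and 32.5 ± 5.79% in resistant larvae, and 22.0 ± 1.86% in sensitive adults and 37.9 ± 3.26% in sensitive larvae. Its share was lower in each adult library than in each larval library of its strain. In all 6 adult libraries Jheh2 was above Jheh1, and Jheh1 above Jheh3. Among larvae, Jheh2 led in resistant replicates 1 and 2, Jheh3 in resistant replicate 3 and sensitive replicates 1 and 2, and Jheh1 in sensitive replicate 3. No test was made of the shares.

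**Figure D3:**
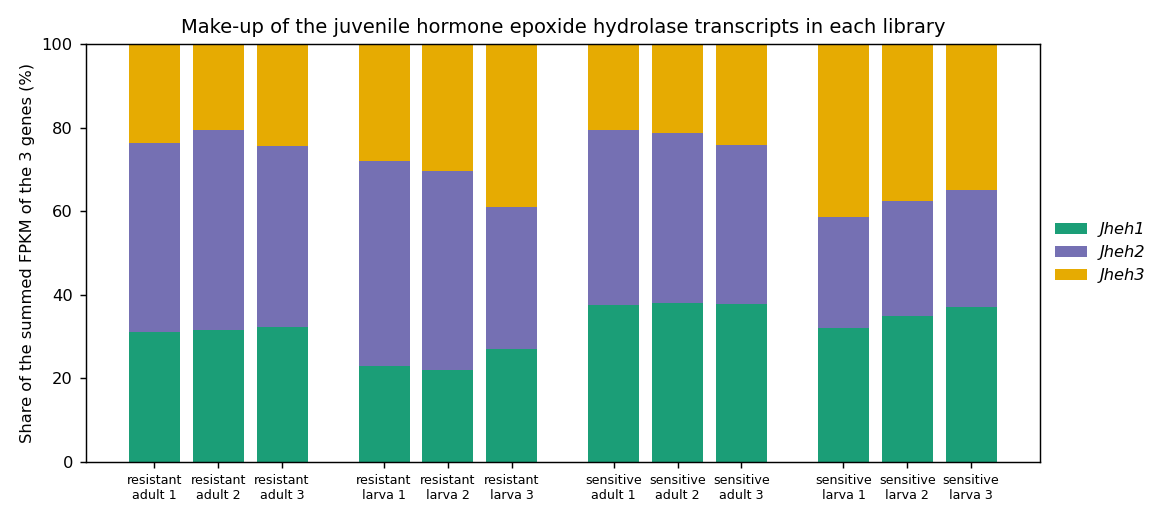
Share of each epoxide hydrolase gene in the summed FPKM of Jheh1, Jheh2 and Jheh3, in percent, 1 bar per library. The Jheh3 segment is smaller in adults than in larvae of the same strain, and the Jheh2 segment is smallest in the sensitive larvae, at 26.7 to 28.1%.

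The second question was whether the stage difference itself differed between the strains, tested as an interaction over all 12 libraries. Jhe and Jheh2 differed. For Jhe the stage difference was 1.40 higher on the log2 scale in the resistant than in the sensitive strain (95% interval 0.81 to 1.99; adjusted p = 0.00323), and it was called without each of the 12 libraries, with adjusted p of 0.00278 to 0.0116, and at every other setting. For Jheh2 the stage difference was lower in the resistant strain, at -1.20 for resistant minus sensitive (95% interval -1.80 to -0.60; adjusted p = 0.00778), also called without each library, but it was -0.76 with adjusted p = 0.113 after median-of-ratios scaling. Jhe and Jheh2 are the members called among 10 tested, 1 in each direction, where 9.98% of 12270 genes were higher, 19.7% lower and 29.7% called in either direction. After scaling the count was 1 higher and 0 lower, beside 15.7% and 7.82%. Among the other 8 members the estimates ran from -1.01 for Kr-h1 (adjusted p = 0.174) to 0.62 for jhamt (adjusted p = 0.247). Those of tai, at -0.81 (95% interval -1.61 to -0.00094; adjusted p = 0.111), and gce, at -0.84 (adjusted p = 0.120), also missed the threshold. The lower adult level of tai and Kr-h1, called in the resistant strain alone, was therefore not shown to differ between the strains.

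The last question, the one the study's design names, was how the resistant strain differed from the sensitive strain at each stage. These comparisons use the same libraries as those of stage and are not separate evidence. Among adults, all 3 epoxide hydrolases were lower in the resistant strain. Jheh1 averaged 55.8 ± 7.61 FPKM in resistant adults and 141 ± 28.3 FPKM in sensitive adults, with a log2 difference of -1.30 ± 0.23 (95% interval -1.81 to -0.80; adjusted p = 0.00742). Jheh2 averaged 79.8 ± 6.33 FPKM in resistant adults and 150 ± 26.3 FPKM in sensitive adults, a difference of -0.89 (adjusted p = 0.0185), and Jheh3 40.5 ± 7.54 and 82.5 ± 20.4 FPKM, a difference of -0.99 (adjusted p = 0.0229). No resistant adult reached the level of any sensitive adult for these 3 genes. The adult strains did not overlap for 5 of 10 members, beside 32.1% of the 11612 genes tested. The 3 calls also held after median-of-ratios scaling, at -1.45, -1.03 and -1.13 (adjusted p of 0.0103, 0.0252 and 0.0296). Only the call of Jheh1 held without each library. Jheh2 lost its call without resistant adult replicate 1 (adjusted p = 0.0956), sensitive adult replicate 2 (0.0928) or sensitive adult replicate 3 (0.0805), and Jheh3 without resistant adult replicate 1 (0.0912) or 2 (0.0604) or sensitive adult replicate 2 (0.0909) or 3 (0.1001).

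Jhe went the other way among adults, at 4.77 ± 0.70 FPKM in the resistant and 2.53 ± 0.62 FPKM in the sensitive strain. Its log2 difference of 0.72 had an adjusted p of 0.0442, which lay between 0.0519 and 0.171 without each of the 6 libraries in turn. It was 0.135 after median-of-ratios scaling, 0.0553 with a common total per library and 0.0518 with no filter. The groups did not overlap, yet the call rested on every library being present. The level of jhamt was 6.80 ± 1.68 FPKM in resistant adults and 3.72 ± 1.67 FPKM in sensitive adults, also without overlap, and was not called (log2 difference 0.78; adjusted p = 0.123). Met, gce, tai, Kr-h1 and Jhedup overlapped between the adult strains, with differences of -0.36 to 0.22 and adjusted p of 0.590 or more. In all 1 member of 10 was called higher and 3 lower, where 15.9% of 11612 genes were higher, 3.95% lower and 19.9% called in either direction. After scaling it was 0 higher and 3 lower, beside 10.6% and 4.41%. The 3 lower ones are neighbours in the genome and not independent cases.

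Sex could not be read from the labels, and only some of its markers moved with strain among the adults. The 5 female markers (Yp1, Yp2, Yp3, Cp36 and Vm26Ab) summed to 8559, 7743 and 10723 FPKM in resistant adults and to 16654, 15774 and 14736 FPKM in sensitive adults. By gene, Yp1, Yp2 and Yp3 were lower in every resistant adult than in every sensitive adult. Cp36 and Vm26Ab overlapped between the strains, and Vm26Ab averaged 1091 FPKM in resistant and 833 FPKM in sensitive adults. The male markers Acp26Aa and SP summed to 666, 811 and 338 FPKM in resistant adults and to 118, 387 and 358 FPKM in sensitive adults. These sums overlapped between the strains, as did SP, while Acp26Aa did not (means of 149 FPKM in resistant and 47.6 FPKM in sensitive adults). The part of these differences in the adult comparison of the members was not tested.

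Among larvae, Met, tai and Kr-h1 were higher in the resistant strain and Jhe and Jheh1 were lower. Kr-h1 averaged 11.8 ± 3.88 FPKM in resistant larvae and 5.82 ± 1.78 FPKM in sensitive larvae (log2 difference 0.90; adjusted p = 0.0127, and 0.0748 in 1 fit of all 12 libraries), and tai 9.72 ± 2.42 and 4.98 ± 0.76 FPKM (0.83; adjusted p = 0.00678). Met averaged 2.91 ± 0.60 FPKM in resistant larvae and 1.497 ± 0.31 FPKM in sensitive larvae, a difference of 0.64 (adjusted p = 0.0156) that lost its call without sensitive larva replicate 1 (0.0639). None of these 3 rises was called after median-of-ratios scaling, where they were 0.26 to 0.39 with adjusted p of 0.212 to 0.316. In the deposited values the median gene was 0.49 higher in resistant than in sensitive larvae (log2), against 0.02 after that scaling.

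The lower larval levels of Jhe and Jheh1 held under both scalings. Jhe averaged 1.67 ± 0.44 FPKM in resistant larvae and 3.26 ± 0.42 FPKM in sensitive larvae, a log2 difference of -0.68 (adjusted p = 0.0107) that was -1.07 after scaling (adjusted p = 0.000945). Jheh1 averaged 46.2 ± 9.85 FPKM in resistant larvae and 82.7 ± 9.77 FPKM in sensitive larvae, a difference of -0.84 (adjusted p = 0.00529) that was -1.40 after scaling (adjusted p = 0.000263). Jheh3 had a difference of -0.56 (adjusted p = 0.0617), called at -1.12 after scaling (adjusted p = 0.00355), and without resistant larva replicate 3 (-0.75; adjusted p = 0.0247). Jheh2 had one of 0.31 (adjusted p = 0.185), called with a common total per library (0.50; adjusted p = 0.0384). For gce the larval difference was 0.48 (adjusted p = 0.0784), called without resistant larva replicate 2 (0.70; adjusted p = 0.0136) and with a common total (0.64; adjusted p = 0.0381), and for jhamt it was 0.15 (adjusted p = 0.589). Jheh1 is thus the member that was lower in the resistant strain at both stages, at both scalings and without each library. The count was 3 higher and 2 lower of 9 tested, beside 48.8% higher, 9.84% lower and 58.7% in either direction of 11055 genes, and after scaling 0 higher and 3 lower, beside 11% and 19.2%. Jhedup was under 1 FPKM in 5 of 6 larvae and was not tested.

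**Figure D4:**
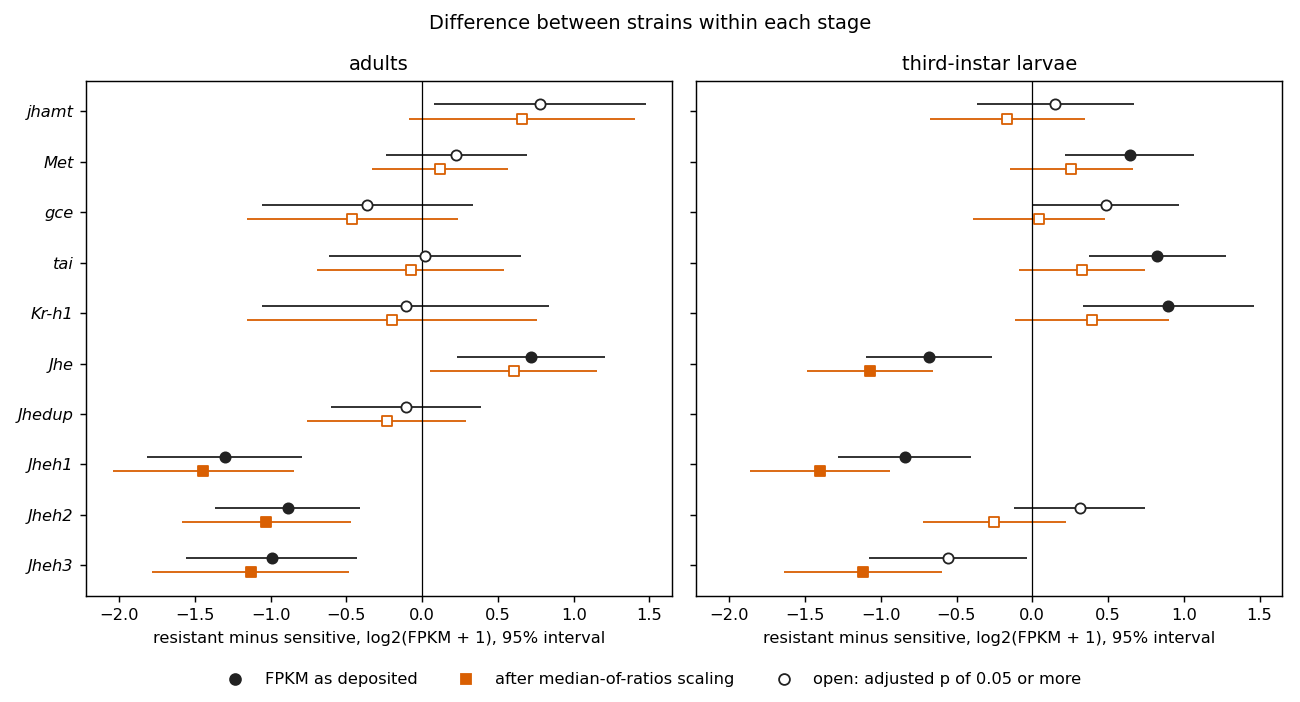
Resistant minus sensitive difference of each gene on the log2(FPKM + 1) scale with its 95% interval, in adults on the left and third-instar larvae on the right; circles are deposited FPKM, squares are after median-of-ratios scaling, and filled symbols have an adjusted p under 0.05. Jheh1 is filled and below 0 in both panels and both scalings, and Jhedup has no larval value because it was not tested there.

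The wider pathway was taken as 35 genes in 4 lists: precursor supply, control of the gland, partners of the receptors, and response. Of these 29 passed the filter in the stage comparisons, and the 6 that did not were the gland control genes AstA-R1, AstC-R1, AstC-R2, Nmdar1, Nmdar2 and InR. In the resistant strain 9 of 29 were higher in adults and 8 lower, and in the sensitive strain 15 were higher and 5 lower, beside 34.7% and 17.4% of all genes in the resistant and 55.7% and 13.2% in the sensitive strain. The counts after median-of-ratios scaling were 7 higher and 10 lower in the resistant strain, and 10 higher and 11 lower in the sensitive strain, beside 28.3% and 25%, and 29% and 26%, of all genes. No test compared the lists with each other or with other genes. Precursor supply had 6 of 10 genes higher and 1 lower in resistant adults, and 6 higher and 2 lower in sensitive adults, while gland control had 0 of 7 higher and 3 lower in resistant adults, and 2 higher and 1 lower in sensitive adults. The median log2 difference of the supply genes was 0.66 in the resistant and 1.09 in the sensitive strain, beside 0.28 and 0.62 for all genes tested. After median-of-ratios scaling it was 0.39 and 0.48, beside 0.03 and 0.04. Supply then had 4 genes higher and 1 lower in resistant adults, and 4 higher and 3 lower in sensitive adults. Gland control had 0 higher and 5 lower in resistant adults, and 0 higher and 3 lower in sensitive adults.

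The supply genes called in both strains with the same sign include enzymes of the mevalonate pathway, though Mvk, the mevalonate kinase, was lower in sensitive adults (-0.34; adjusted p = 0.0441) and not called in the resistant strain (0.06; adjusted p = 0.876). Hmgs, which makes HMG-CoA, averaged 55.7 ± 6.27 FPKM in resistant adults and 23.5 ± 2.46 FPKM in resistant larvae, and 65.8 ± 1.75 FPKM in sensitive adults and 22.0 ± 2.66 FPKM in sensitive larvae. Its log2 difference was 1.21 in the resistant strain (adjusted p = 0.000593) and 1.54 in the sensitive strain (adjusted p = 2.136e-05). Acat2, an acetyl-CoA acetyltransferase, was higher in adults by 1.14 in the resistant and 1.65 in the sensitive strain. Hmgs and Acat2 were called in both strains after median-of-ratios scaling too. Cyp6g2, a cytochrome P450, was higher by 1.15 and 1.11, and its call in the sensitive strain was lost after scaling (0.57; adjusted p = 0.0599).

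Of the response genes, br differed most between stages. br, the Broad transcription factor of the larval to pupal transition, averaged 0.83 ± 0.13 FPKM in resistant adults and 71.0 ± 28.9 FPKM in resistant larvae, and 0.87 ± 0.52 FPKM in sensitive adults and 26.1 ± 5.89 FPKM in sensitive larvae. The log2 difference of br was -5.23 in the resistant strain (adjusted p = 4.489e-08) and -3.87 in the sensitive strain (adjusted p = 2.052e-06). All resistant adults were under 1 FPKM for br, which passed the filter there through its larval values. Sensitive adults had 1.47, 0.58 and 0.55 FPKM of br, so in that strain too it was tested through the larvae. Eip93F, a transcription factor of adult development that Kr-h1 holds back in the beetle Tribolium, was higher in adults, at 6.22 ± 1.02 FPKM in resistant adults and 0.98 ± 0.50 FPKM in resistant larvae, and 2.48 ± 1.02 FPKM in sensitive adults and 0.44 ± 0.11 FPKM in sensitive larvae. Its difference was 1.89 in the resistant and 1.23 in the sensitive strain (adjusted p = 6.488e-05 and 0.000979). All sensitive larvae were under 1 FPKM for Eip93F, so in that strain it was tested through its adult values. JhI-21, an amino acid transporter gene named for its induction by the hormone, was higher in adults by 0.85 and 1.42.

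Of the receptor partners, ftz-f1, a nuclear receptor, averaged 6.03 ± 1.0 FPKM in resistant adults and 1.16 ± 0.34 FPKM in resistant larvae, and 5.96 ± 3.33 FPKM in sensitive adults and 0.95 ± 0.05 FPKM in sensitive larvae. The differences of ftz-f1 were 1.71 and 1.74 (adjusted p = 6.081e-05 and 0.000761). All sensitive larvae were under 1 FPKM for ftz-f1 too, so in that strain it passed the filter through the adults. Chd64, a calponin-related protein, was lower in adults, with log2 differences of -1.66 and -1.21. It had 123 ± 7.47 FPKM in resistant adults, 391 ± 41.8 FPKM in resistant larvae, 128 ± 31.7 FPKM in sensitive adults and 295 ± 50.1 FPKM in sensitive larvae. AstA-R2, a receptor for allatostatin A, was the gland control gene called in both strains, at -1.48 in the resistant and -0.61 in the sensitive strain. In the sensitive strain the stages of AstA-R2 overlapped, and it was not called with a common total per library. It had 1.53, 0.84 and 0.55 FPKM in sensitive adults and 2.37, 2.12 and 1.42 FPKM in sensitive larvae. In that strain AstA-R2 thus passed the filter through its larval values. The named genes of the 4 lists, other than Cyp6g2 in the sensitive strain, kept their calls after median-of-ratios scaling.

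**Figure D5:**
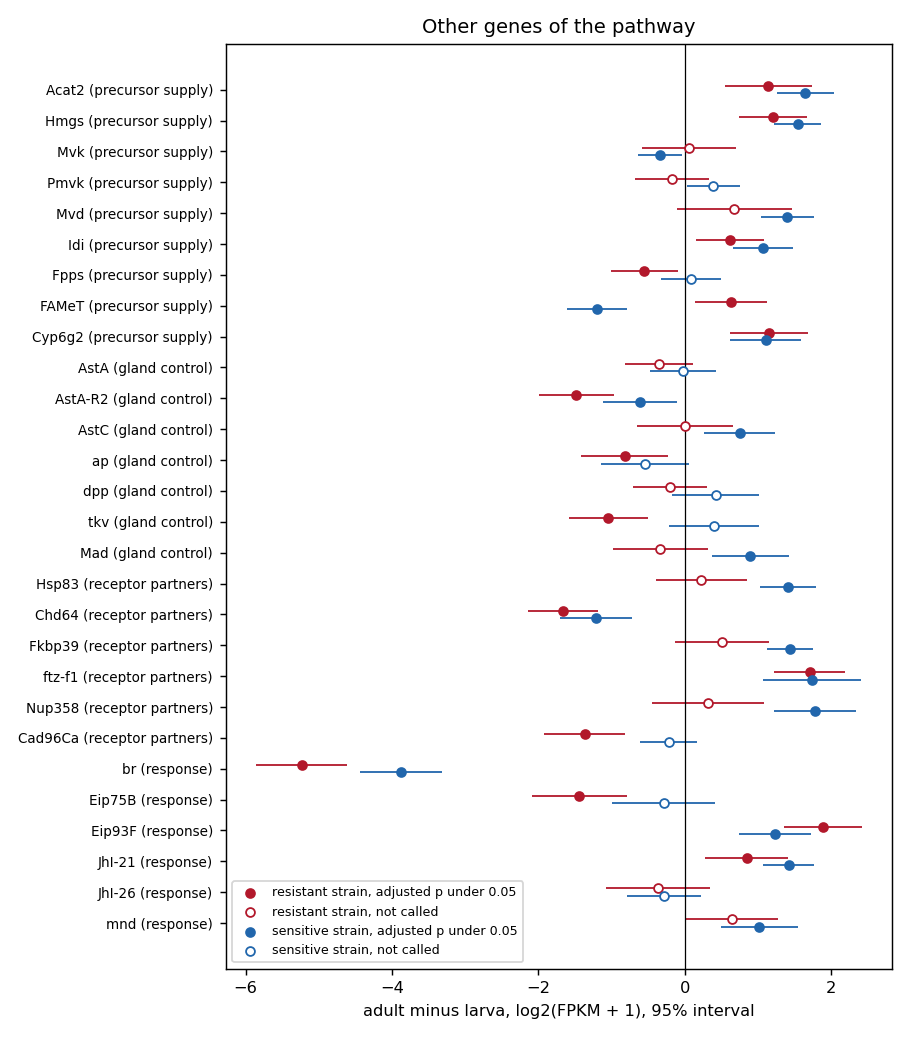
Adult minus larva difference on the log2(FPKM + 1) scale with its 95% interval for 28 of the 29 tested genes of the 4 pathway lists, in deposited FPKM; red is the resistant and blue the sensitive strain, and filled symbols have an adjusted p under 0.05. br lies farthest from 0, at -5.23 and -3.87, and FAMeT is called in opposite directions in the 2 strains.

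The genes whose profile over the 12 libraries was most like that of a member were found by Pearson correlation of log2 values among 12269 other genes. For jhamt they were CG34222 at 0.96, CG14634 at 0.95 and CG12994 at 0.94. CG34222 averaged 24.3 FPKM in resistant adults, 7.59 FPKM in resistant larvae, 14.1 FPKM in sensitive adults and 7.86 FPKM in sensitive larvae, the same order of adult groups as jhamt. For Kr-h1 they were Eip75B, an ecdysone-induced nuclear receptor, and Xrp1, a stress-related transcription factor, both at 0.96, and NUCB1, a calcium-binding protein, also at 0.96. Eip75B averaged 10.4 FPKM in resistant adults and 30.6 FPKM in resistant larvae, and 11.3 FPKM in sensitive adults and 13.5 FPKM in sensitive larvae. For Jhe they were a gene listed without a symbol at 0.96, CG4995 at 0.96 and CG3679 at 0.93. CG3679 averaged 75.5 FPKM in resistant adults and 21.3 FPKM in resistant larvae, and 38.9 FPKM in sensitive adults and 44.4 FPKM in sensitive larvae. As for Jhe, the resistant strain held both the highest and the lowest group. A group order like that of the member follows from picking genes by correlation and is not separate evidence. These correlations have no p, since the libraries share 4 groups.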

How the data were processed

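Per the labels' protocols, TRIzol was used for total RNA of whole bodies and a BGISEQ-500 for sequencing. STAR, RSEM 1.3.3, edgeR 3.12, FastQC 0.11.9 and the dm6 build are listed in the submitters' processing notes, with no role or settings. Expression values are FPKM as deposited by the authors, in 1 table of 14001 genes and 12 libraries, and 0 of its value columns belonged to other samples. The sources used here do not give how reads of similar genes were divided, so values of the neighbouring paralogues are uncertain to that extent.

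Groups came from the labels. Values were taken as log2(FPKM + 1), which understates fold changes of low genes, and genes at 1 FPKM or more in at least 3 libraries of a fit were kept. Tests were two-sided, with limma 3.58.1 (mean-variance trend, robust empirical Bayes) in R 4.3.3, and a gene was called at a Benjamini-Hochberg adjusted p under 0.05 over all genes tested. The 6 libraries of a comparison made up its fit, and the interaction used all 12. The fit was checked on simulated data for the resistant stage and adult strain comparisons alone. The check left out the sensitive larvae and has no bearing on calls that depend on scaling. Alternatives were median-of-ratios and common-total scaling, no filter, a pseudocount of 0.1, a replicate block, 1 fit of all 12 libraries, and each library left out.

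Gene names and coordinates came from an Ensembl annotation of dm6, which matched 13777 of 14001 identifiers. Fragments per library were estimated from the steps of low values in single-transcript genes, of which 89.3 to 97.0% lay within 0.2 of a whole fragment, and the estimates cover counting error only. All 10 members were named, with, of each pathway list, up to 4 genes called with the same sign in both strains by size of the stage difference (1 such gene is counted in its list but not reported by name here), and the 3 most alike genes of jhamt, Kr-h1 and Jhe. The members and lists were chosen with earlier results of these data known. Plots used matplotlib 3.10.9 in Python 3.11.15.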

Additional observations from a re-analysis of the deposited data

Results flagged for a closer look

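Among the 10 members and the pathway genes named by size of stage difference, 3 genes were called by the interaction test in limma. Of all 12270 genes tested, 29.7% were called in either direction. Called pathway genes outside that choice are given under the other observations. For Jhe the stage difference was 1.40 higher (log2) in the resistant than in the sensitive strain, with adjusted p = 0.00323. For Jheh2 it was -1.20 in the same direction of subtraction, with adjusted p = 0.00778, and -0.76 with adjusted p = 0.113 after median-of-ratios scaling. For br it was -1.36, with adjusted p = 0.0202, and -0.84 with adjusted p = 0.0964 after median-of-ratios scaling.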

How the results depend on the processing

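Of the 49 results on members, a pseudocount of 0.1 left 49 with the same call and no filter 48. Common-total scaling left 45, and median-of-ratios scaling 34, with 9 calls lost and 6 gained. In 1 fit of all 12 libraries 38 of 39 kept their call. A result called at neither setting counts as the same here even where its sign changed. Met between stages of the resistant strain is such a case, at 0.12 and, after median-of-ratios scaling, -0.10. Among 351 member results from fits without 1 library, 20 calls were lost and 7 gained. No called member changed sign. Replicate numbers are shared between groups, but same-numbered libraries deviated with correlations of -0.26 to 0.53, so they were not taken as pairs. The replicate block left 47 of 49 member results as they were and lost the calls of Met in the stage difference of the sensitive strain and of Jhe between adult strains (adjusted p of 0.0612 and 0.0593). Counts of called genes with the replicate block were 6296 and 7834 for stage in the resistant and sensitive strain, 3796 for the interaction, and 2438 and 6102 between strains in adults and larvae, each within 1.5 times the unblocked count. Genes called between larval strains numbered 3342 after median-of-ratios scaling against 6484. The scaling changed the higher and lower calls to 3396 and 3000 for stage in the resistant strain (from 4165 and 2095), and to 3371 and 3022 in the sensitive strain (from 6485 and 1538). It changed them to 1922 and 960 for the interaction (from 1224 and 2416) and to 1218 and 2124 between larval strains (from 5396 and 1088). Without 1 library, the interaction count of 3640 ran from 2117 to 4730, with 2389 without resistant adult replicate 1, 2315 without resistant larva replicate 1 and 2117 without sensitive larva replicate 3. The adult strain count of 2309 ran from 497, without resistant adult replicate 1, to 2282, with 951 and 1225 without sensitive adult replicates 3 and 2. The cause was not tested. Depth limits jhamt and Jhedup, at as few as 6 and 5 estimated fragments.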

Other observations

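FAMeT, a gene of the precursor supply list named for farnesoic acid methyltransferase, was called in opposite directions between stages in the 2 strains. It was picked out after its values were seen, and the activity of its product was not measured. It averaged 285 ± 34.3 FPKM in resistant adults and 183 ± 20.99 FPKM in resistant larvae, a log2 difference of 0.63 (adjusted p = 0.0332). In the sensitive strain it averaged 237 ± 25.0 FPKM in adults and 547 ± 96.5 FPKM in larvae, a difference of -1.20 (adjusted p = 0.000421). The interaction of FAMeT was 1.83 (adjusted p = 0.000517), and 2.27 after median-of-ratios scaling. The resistant rise was not called after that scaling, at 0.35 with adjusted p = 0.261.

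Between the strains as larvae, 16 of 27 tested pathway genes were higher in the resistant strain and 1, FAMeT, was lower, beside 48.8% and 9.84% of all genes. After median-of-ratios scaling 3 were higher and 3 lower, beside 11% and 19.2%. Among adults 1 of 28 was called, Eip93F, higher in the resistant strain by 1.08 (adjusted p = 0.0174), also chosen after its value was seen, and the same gene was higher by 0.97 after scaling (adjusted p = 0.0321). Of all genes 15.9% were higher and 3.95% lower between the adult strains. JhI-26 was called lower in resistant adults after median-of-ratios scaling (-0.79; adjusted p = 0.0456) and with a common total per library (-0.69; adjusted p = 0.0357).

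The genes tkv, Mad, Hsp83, Nup358 and Cad96Ca also had a lower stage difference in the resistant strain, at -1.46 to -1.15 for resistant minus sensitive with adjusted p of 0.0126 to 0.0328, and were likewise picked out after their values were seen. After median-of-ratios scaling only tkv of these 5 was called (-1.02; adjusted p = 0.0426), and Mad, Hsp83, Nup358 and Cad96Ca had adjusted p of 0.061 to 0.0918. Of the 29 tested pathway genes, the interaction called 1 higher and 6 lower, beside 9.98% and 19.7% of all 12270 genes. After scaling it called 2 higher and 1 lower, beside 15.7% and 7.82%. None of these shares stands well above that of all genes, so the counts are not a result about the pathway.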
